A study of Mus musculus with 21 samples.

Results

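Long-term haematopoietic stem cells (LT-HSC) and MPP2 multipotent progenitors of wild-type (WT) mouse bone marrow were compared across all expressed genes. The comparison used 6 of the 21 RNA-seq libraries of the series, chosen by their labels: the 2 WT LT-HSC libraries and the 4 WT MPP2 libraries. Each library was made from 100 to 200 cells sorted from the marrow of 12-week-old C57BL/6 mice with a wild-type Phf6 gene, and no treatment is named. Cells were stained for lineage proteins, cKit, Sca-1, CD48 and CD150, and Flt3 was not among the stains named. The series also holds 4 WT MPP3 libraries, and 3 LT-HSC, 4 MPP2 and 4 MPP3 libraries of Phf6 knockout (KO) mice of the same strain and age, and how the knockout was made is not given in the sources used here. Below, LT-HSC and MPP2 without a genotype mean the WT libraries, named by their replicate numbers (LT-HSC 1 and 2, MPP2 1 to 4).

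LT-HSC stand at the top of blood formation. Most of them are out of the cell cycle at any time, and they can rebuild every blood lineage for the life of a transplanted host. MPP2 lie a step below: they share CD150 with the stem cells, carry CD48, divide more often, engraft for a shorter time, and are held to be biased to platelets and red cells.

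The transcripts of the sorted proteins were read first, as a check of the labels. Cd48 (ENSMUSG00000015355.13; chromosome 1, 171682009 to 171705258, plus strand, mm10), the surface protein that the sort uses to part the populations, was at 13.7 and 5.57 CPM in LT-HSC 1 and 2, and at 517, 458, 231 and 402 CPM in MPP2 1 to 4. Levels are CPM, each library's counts set to a common total with edgeR's TMM factors. The log2 fold change, LT-HSC minus MPP2, was -5.38 ± 0.70 (SE; edgeR adjusted p = 0.00399), and Cd48 is a gene of the sort and not a result. Slamf1, which encodes CD150 and marks both populations, was at 64.1 and 52.0 CPM in LT-HSC 1 and 2, and at 33.8, 9.18, 73.0 and 80.1 CPM in MPP2 1 to 4, against 0.0352 to 1.99 CPM in WT MPP3, which are sorted without CD150. Its levels overlapped between the groups. Kit, the stem cell factor receptor, was at 277 and 372 CPM in LT-HSC 1 and 2, and at 266, 274, 177 and 229.6 CPM in MPP2 1 to 4, with LT-HSC 1 just above the highest MPP2 library, and did not pass (edgeR adjusted p = 0.678). Ly6a, which encodes Sca-1, was at 270.3 and 247 CPM in LT-HSC 1 and 2, and at 264, 166, 17.3 and 31.3 CPM in MPP2 1 to 4, so that MPP2 3 and 4 lay far below the other libraries. Phf6 itself, a chromatin-bound zinc finger protein, was at 177 and 124 CPM in LT-HSC 1 and 2, and at 209.7, 154, 61.1 and 126 CPM in MPP2 1 to 4.

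Total counts were 25366462 to 25938389 in LT-HSC and 24063679 to 29300053 in MPP2, with 23786 to 24827 and 20260 to 25422 genes detected. At this depth 3 counts, the limit that a count of 0 allows, are 0.102 to 0.105 CPM in LT-HSC and 0.0985 to 0.126 CPM in MPP2, and such limits cover counting error only. The neutrophil markers (15 genes) took 0.533% of counts in LT-HSC 2, against 0.00177% in LT-HSC 1 and 0.00149% to 0.0349% in MPP2. The B cell and plasma cell markers (15 genes) took 0.982% and 0.321% in MPP2 1 and 2, against 0.0173% to 0.0331% in the other 4 libraries. Markers of T and NK cells, mature erythroid cells, monocytes and macrophages, mast cells and basophils, and stroma took at most 0.151% in any of the 6 libraries. Among all these markers the 1 gene past the threshold was Il4, and the part of other cells in the results was not tested. LT-HSC 2 and MPP2 2 held counts of the Y-linked gene Ddx3y and the other 4 libraries at most 1 count of it. Libraries are bulk samples, in which fewer cells that express a gene and less RNA of it per cell cannot be told apart.

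Of 21100 genes tested, 133 (0.63%) passed an edgeR adjusted p of 0.05. Of these, 56 (0.265%) were higher and 77 (0.365%) lower in LT-HSC, with 53 of the higher past a log2 fold change of 1 and 63 of the lower past -1. In all 133 the LT-HSC libraries did not overlap the MPP2 libraries, as in 26.8% of all genes tested. The median log2 fold change of all genes was 0. Without LT-HSC 2 the test called 0 genes, with 1626 at an unadjusted p under 0.05, and without LT-HSC 1 it called 5, Cd48, Kazald1, Krt18 and Tent5a among them, so that every call named below rests on both stem cell libraries except those 4, which rest on LT-HSC 2. Limma voom called 664 genes, and 480 of them were higher in LT-HSC, a split opposite to that of edgeR. With the replicate number as a block over all 21 libraries, 192 genes passed, 113 of the 133 among them. This block joins WT and KO libraries of a number, so it marks at most a pair of mice. It is the block meant below where no other is named. A block by replicate number on the 10 WT libraries alone left 34 genes, 18 of them among the 133. It is called the block by mouse below, though the labels do not state that a number marks a mouse. Of the 75 called genes named in this report, 64 kept the call with the block by number and only 16 with the block by mouse. In 3 KO libraries outside the contrast, KO MPP2 1, KO MPP3 1 and KO MPP3 2, a single gene took over 7% of counts, and without them in the fit 527 genes passed, all 133 among them. All 133 kept their direction in each of the 19 alternatives run, which reuse the same libraries. With no overlap between the groups there was little room for a turn, so this adds no support.

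**Figure D1:**
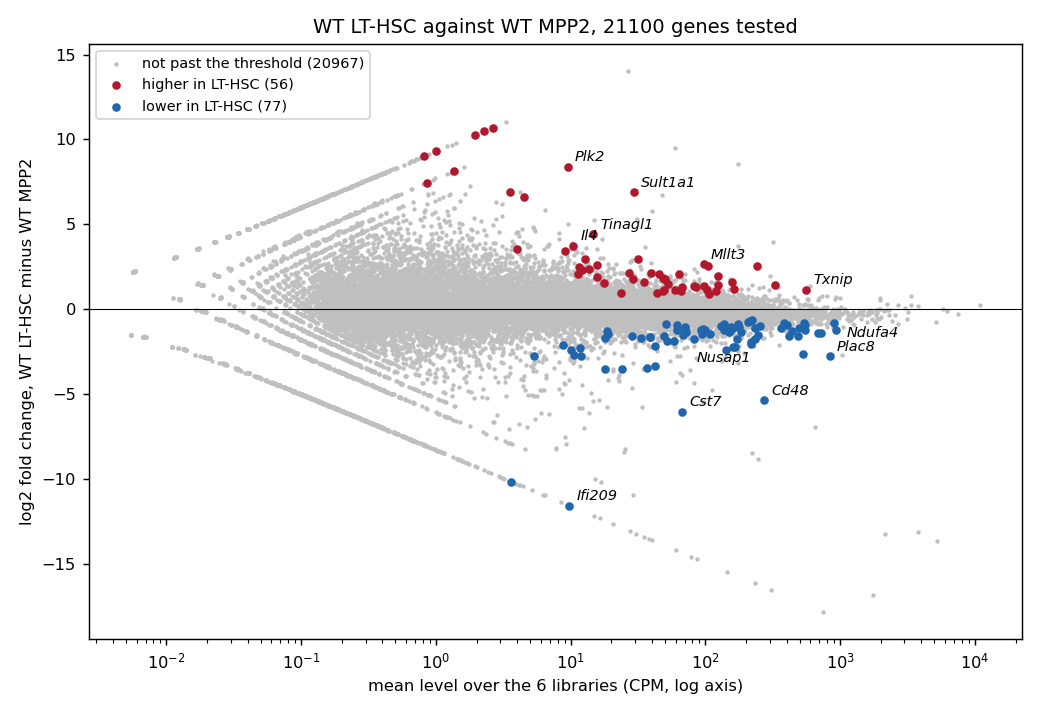
Log2 fold change (WT LT-HSC minus WT MPP2, vertical axis) against the mean level over the 6 libraries (CPM, log axis) for each of 21100 genes tested; red points are the 56 genes that were higher and blue points the 77 that were lower in LT-HSC at an edgeR adjusted p under 0.05. Some grey points at low levels lie farther from 0 than many coloured ones.

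Some genes that mark stem cells rose in LT-HSC. Of 46 stem cell surface and signalling genes, all tested, 4 passed the threshold and all 4 were higher (Sult1a1, Txnip, Fstl1 and Cavin3). The share of all genes called higher was 0.265%. The fitted change was above 0 for 39 of the 46, and the median log2 fold change was 1.59, against 0 over all genes. Without the 3 KO libraries named above 10 members passed, with the block by mouse 1 and with the 6 compared libraries alone 1, all higher, and against MPP2 1 and 2 alone 0. The summed level of the list was 7625 and 7465 CPM in LT-HSC 1 and 2 and 3562 to 4747 CPM in MPP2. Of 43 stem cell transcription regulators, 2 passed, both higher (Mllt3 and Nr4a1), 38 had a fitted change above 0, and the median was 0.94. Without the 3 KO libraries 7 regulators passed, all higher, and with the block by mouse and against MPP2 1 and 2 alone 0 passed. Mllt3 (ENSMUSG00000028496.17; chromosome 4, 87769925 to 88033364, minus strand), a chromatin reader of the super elongation complex that human stem cells need, was at 194 and 249 CPM in LT-HSC 1 and 2, and at 32.6, 41.6, 39.0 and 28.1 CPM in MPP2 1 to 4. Both stem cell libraries lay above all progenitor libraries, by a log2 fold change of 2.65 ± 0.45 (SE; edgeR adjusted p = 0.0102). Sult1a1 (chromosome 7, 126672865 to 126676432, minus strand), a sulfotransferase of phenols known as a stem cell transcript, was at 85.2 and 88.7 CPM in LT-HSC 1 and 2, and at 0.685, 2.08, 0.197 and 0 CPM in MPP2 1 to 4. It was at 0 counts in MPP2 4, far lower in every MPP2 library than in LT-HSC, and changed by 6.87 ± 1.40 (SE; edgeR adjusted p = 0.0328). Txnip, a binder of thioredoxin that restrains glucose uptake, was at 821 and 919 CPM in LT-HSC 1 and 2, and at 408, 325, 375 and 478 CPM in MPP2 1 to 4, a change of 1.13 ± 0.23 (SE; edgeR adjusted p = 0.0328). Its MPP2 libraries agreed closely and both stem cell libraries were above them.

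Fstl1, a secreted glycoprotein, was at 49.8 and 61.0 CPM in LT-HSC 1 and 2, and at 14.1, 19.4, 7.85 and 9.19 CPM in MPP2 1 to 4. Its log2 fold change was 2.13 ± 0.43 (SE; edgeR adjusted p = 0.0328). Cavin3, a coat protein of caveolae, was at 57.1 and 69.2 CPM in LT-HSC 1 and 2, and at 24.1, 18.2, 22.3 and 19.7 CPM in MPP2 1 to 4, and its call was lost with the block (edgeR adjusted p = 0.058). Nr4a1, an orphan nuclear receptor that is also an immediate early gene, was at 16.0 and 4.28 CPM in LT-HSC 1 and 2, and at 0.846, 1.71, 0.460 and 0.503 CPM in MPP2 1 to 4. LT-HSC 1 held it at the higher of the 2 stem cell levels, and its call too was lost with the block (edgeR adjusted p = 0.0636).

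Several classical stem cell genes had higher levels in both LT-HSC libraries and did not pass. Procr, the endothelial protein C receptor used to sort stem cells, was at 85.1 and 98.2 CPM in LT-HSC 1 and 2, and at 12.98, 13.4, 2.69 and 0.336 CPM in MPP2 1 to 4, with a log2 fold change of 3.64 ± 1.15 (SE; edgeR adjusted p = 0.155). Its MPP2 libraries fell into a higher pair, 1 and 2, and a lower pair, 3 and 4. Mecom, a zinc finger factor essential to stem cells, was at 118 and 141 CPM in LT-HSC 1 and 2, and at 57.6, 47.9, 23.2 and 14.6 CPM in MPP2 1 to 4 (edgeR adjusted p = 0.154; 0.0441 with the block, past the threshold). Hlf, a bZIP factor of the stem cell state, was at 247 and 332 CPM in LT-HSC 1 and 2, and at 142, 131, 46.1 and 18.5 CPM in MPP2 1 to 4 (edgeR adjusted p = 0.327). In Mecom and Hlf the same 2 pairs of MPP2 libraries stood apart. Fgd5, an exchange factor used as a stem cell reporter, was at 19.7 and 21.1 CPM in LT-HSC 1 and 2, and at 6.73, 4.61, 0 and 0 CPM in MPP2 1 to 4 (edgeR adjusted p = 0.389). Prdm16, a zinc finger regulator of stem cell upkeep, was at 24.1 ± 7.84 CPM in LT-HSC (SD, n = 2) and 7.83 ± 3.40 CPM in MPP2 (SD, n = 4) (edgeR adjusted p = 0.089), and Esam, an adhesion protein of endothelial and stem cells, at 152 ± 16.5 CPM in LT-HSC (SD, n = 2) and 47.7 ± 16.6 CPM in MPP2 (SD, n = 4) (edgeR adjusted p = 0.068). The groups of libraries did not overlap in 36 of the 46 surface genes with LT-HSC above and in 22 of the 43 regulators, against 15.3% of all genes tested.

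**Figure D2:**
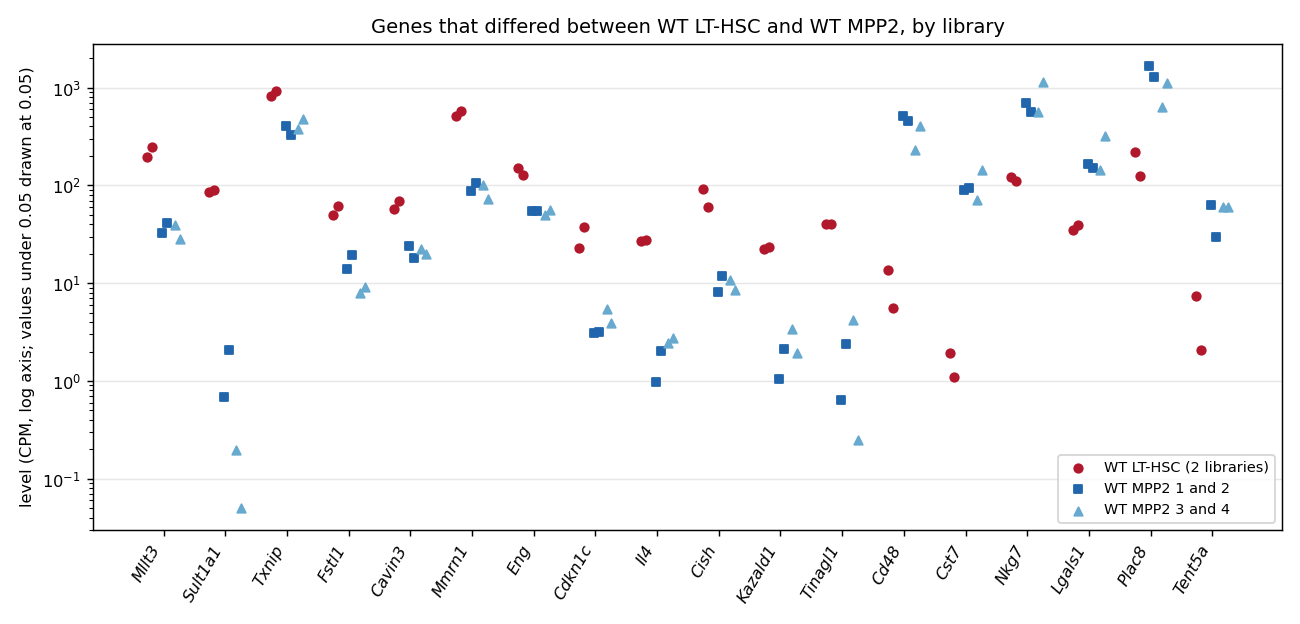
Level (CPM, log axis) of 18 genes past the threshold in each library; red circles are WT LT-HSC 1 and 2, dark blue squares WT MPP2 1 and 2, light blue triangles WT MPP2 3 and 4, and values under 0.05 are drawn at 0.05. In each gene the 2 stem cell libraries lie on one side of the 4 progenitor libraries.

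Of 37 haematopoietic cytokine receptors, 2 passed, both higher, Il15ra among them, against 0.265% of all genes called higher. The median of the list was -0.017, and 18 of the 37 had a fitted change above 0. With the block by number 3 passed, and with the block by mouse and against MPP2 1 and 2 alone 0. Il15ra, the alpha chain that presents interleukin-15, was at 64.5 ± 5.31 CPM in LT-HSC (SD, n = 2) and 33.4 ± 5.38 CPM in MPP2 (SD, n = 4). Cish, a SOCS-type inhibitor that cytokines induce through STAT5, was at 91.4 and 59.7 CPM in LT-HSC 1 and 2, and at 8.14, 11.9, 10.8 and 8.56 CPM in MPP2 1 to 4, a change of 2.94 ± 0.43 (SE; edgeR adjusted p = 0.00614). Pik3r1, a regulatory subunit of phosphoinositide 3-kinase, was in no list and was chosen after its values were seen. It was at 159 ± 12.3 CPM in LT-HSC (SD, n = 2) and 73.4 ± 12.5 CPM in MPP2 (SD, n = 4). Its call was lost under the block (edgeR adjusted p = 0.0558).

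Among 27 TGF-beta, BMP and SMAD genes 1 passed, against 0.265% of all genes called higher. This was Eng, the TGF-beta co-receptor endoglin. It was at 149.7 and 129 CPM in LT-HSC 1 and 2, and at 54.5, 54.6, 50.1 and 55.8 CPM in MPP2 1 to 4, a change of 1.37 ± 0.25 (SE; edgeR adjusted p = 0.0181). Il4 (chromosome 11, 53602982 to 53618669, minus strand), the cytokine of type 2 immunity, was at 27.0 and 27.6 CPM in LT-HSC 1 and 2, and at 0.967, 2.04, 2.43 and 2.77 CPM in MPP2 1 to 4, a change of 3.73 ± 0.56 (SE; edgeR adjusted p = 0.0065). The 15 mast cell and basophil markers, Il4 among them, took 0.0350% to 0.0388% of counts in LT-HSC and 0.0263% to 0.0653% in MPP2. Of the 15, 11 passed the count filter, and 2 (Mcpt4 and Cma1) were at 0 counts in all 6 libraries. The part of such cells in the Il4 level was not tested.

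Of 39 megakaryocyte and platelet genes tested, 2 passed, both higher in LT-HSC, Mmrn1 among them, against 0.265% of all genes called higher. Mmrn1, multimerin, a protein of platelet granules that stem cells also express, was at 514 and 573 CPM in LT-HSC 1 and 2, and at 86.6, 106, 101 and 72.9 CPM in MPP2 1 to 4. Its log2 fold change was 2.57 ± 0.47 (SE; edgeR adjusted p = 0.0181). The median of the list was -0.34, and it was above 0 against MPP2 1 and 2 alone (0.73) and with the block by number (0.27). Tbxas1, the thromboxane synthase, was in no list and was chosen after its values were seen. It was at 295 and 274 CPM in LT-HSC 1 and 2, and at 88.0, 82.2, 115 and 95.1 CPM in MPP2 1 to 4. Its change was 1.58 ± 0.22 (SE; edgeR adjusted p = 0.00408).

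Among 30 cell cycle brakes and G1 regulators 1 rose and 1 fell, and the median was -0.18. The shares of all genes called were 0.265% higher and 0.365% lower. Cdkn1c (chromosome 7, 143458339 to 143461050, minus strand), the imprinted kinase inhibitor Kip2 that holds stem cells out of cycle, was at 22.7 and 37.7 CPM in LT-HSC 1 and 2, and at 3.10, 3.14, 5.48 and 3.94 CPM in MPP2 1 to 4, a log2 fold change of 2.94 ± 0.66 (SE; edgeR adjusted p = 0.0446). Its call was lost with the block (edgeR adjusted p = 0.0643). Cdk6, the G1 kinase whose level sets how fast stem cells leave quiescence, was at 322 and 333 CPM in LT-HSC 1 and 2, and at 748, 872, 738 and 1066 CPM in MPP2 1 to 4. It was lower in both stem cell libraries, a change of -1.39 ± 0.28 (SE; edgeR adjusted p = 0.0328). Plk2, a polo-like kinase induced by serum and stress, was at 37.6 and 18.9 CPM in LT-HSC 1 and 2, and at 0.322, 0, 0 and 0 CPM in MPP2 1 to 4, a change of 8.39 ± 1.80 (SE; edgeR adjusted p = 0.0379).

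Of 24 imprinted growth control genes, Cdkn1c was the 1 past the threshold, against 0.265% of all genes called higher. The fitted change was above 0 for 18 of 24, the median was 0.89, and in 15 the LT-HSC libraries lay above all MPP2 libraries, against 15.3% of all genes. Ndn, the imprinted growth suppressor necdin, was at 51.4 and 80.5 CPM in LT-HSC 1 and 2, and at 20.2, 12.4, 0.952 and 3.78 CPM in MPP2 1 to 4 and did not pass (edgeR adjusted p = 0.0953).

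Immediate early and stress genes had a median of 1.08 over 37 genes. Of these, 2 passed, both higher (Nr4a1 and Junb), against 0.265% of all genes called higher. With the block by number 4 passed, and against MPP2 1 and 2 alone 0. Junb, an AP-1 subunit, was at 304 and 158 CPM in LT-HSC 1 and 2, and at 53.5, 35.6, 38.6 and 33.2 CPM in MPP2 1 to 4, a change of 2.52 ± 0.55 (SE; edgeR adjusted p = 0.0404). Ier2, another immediate early gene, was at 297 and 117 CPM in LT-HSC 1 and 2, and at 72.2, 69.4, 50.4 and 89.8 CPM in MPP2 1 to 4, and it passed with the block (edgeR adjusted p = 0.0579 without and 0.0109 with it). The 2 stem cell libraries disagreed on the size: the summed level of the list was 5396 CPM in LT-HSC 1 and 2562 CPM in LT-HSC 2, against 2493 to 3432 CPM in MPP2, so the sums overlapped.

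Tinagl1, Kazald1, Sfrp1, Tm4sf1, Pabpc4l and Gsta4 were among the other genes that rose. Tinagl1, a matrix protein of the cathepsin family without protease activity, was at 40.0 and 40.3 CPM in LT-HSC 1 and 2, and at 0.645, 2.41, 4.24 and 0.252 CPM in MPP2 1 to 4, a change of 4.40 ± 0.72 (SE; edgeR adjusted p = 0.00868). Kazald1, a secreted protein with an insulin-like growth factor binding domain, was at 22.4 and 23.5 CPM in LT-HSC 1 and 2, and at 1.05, 2.12, 3.42 and 1.93 CPM in MPP2 1 to 4, a change of 3.42 ± 0.48 (SE; edgeR adjusted p = 0.00408). Both were low in every MPP2 library. Sfrp1, a secreted inhibitor of Wnt signalling, was at 6.85 and 14.1 CPM in LT-HSC 1 and 2, and at 0, 0.163, 0.164 and 0 CPM in MPP2 1 to 4. Tm4sf1, a membrane protein of the tetraspanin-like L6 group, was at 10.9 and 15.5 CPM in LT-HSC 1 and 2, and at 0.0403, 0.490, 0 and 0 CPM in MPP2 1 to 4. Tm4sf1 had 0 counts in MPP2 3 and 4, and Sfrp1 in MPP2 1 and 4. Pabpc4l, a relative of poly(A)-binding proteins, was at 25.5 ± 1.28 CPM in LT-HSC (SD, n = 2) and 4.53 ± 0.953 CPM in MPP2 (SD, n = 4). Gsta4, a glutathione transferase that clears lipid peroxidation products, was at 29.4 ± 3.29 CPM in LT-HSC (SD, n = 2) and 5.63 ± 3.62 CPM in MPP2 (SD, n = 4).

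A further group of called genes, chosen after their values were seen, adds detail. Pdgfc, a growth factor of the PDGF family, was at 7.13 and 8.63 CPM in LT-HSC 1 and 2, and at 0, 0, 0 and 0 CPM in MPP2 1 to 4. With 457 counts in LT-HSC and 0 in MPP2 it was at least 273-fold higher, taking 3 counts over the MPP2 group as the floor. Klhl13, an adaptor of cullin-3 ubiquitin ligases, had 337 counts in LT-HSC and 0 in MPP2, at least 201-fold higher on the same floor. Art4, a GPI-anchored ADP-ribosyltransferase-like protein, was at 80.5 and 81.3 CPM in LT-HSC 1 and 2, and at 16.3, 20.5, 19.5 and 18.8 CPM in MPP2 1 to 4, a change of 2.11 ± 0.32 (SE; edgeR adjusted p = 0.00716). Gimap5, a GTPase of lymphocyte and stem cell survival, was at 91.8 and 98.7 CPM in LT-HSC 1 and 2, and at 29.7, 29.1, 26.0 and 26.0 CPM in MPP2 1 to 4, a change of 1.78 ± 0.27 (SE; edgeR adjusted p = 0.00716). In both genes the libraries of each group lay close together. Krt18, a keratin, was at 156 and 172 CPM in LT-HSC 1 and 2, and at 64.8, 67.3, 62.3 and 58.0 CPM in MPP2 1 to 4 (1.38 ± 0.18 (SE; edgeR adjusted p = 0.00399)). Art4, Cd48, Cst7, Krt18, Nkg7, Nusap1 and Tbxas1 were the 7 genes that passed in each of the 13 alternatives that left out no replicate. Smaller rises, as log2 fold changes, were those of Myct1 (1.19), a stem cell regulator of endocytosis, Coq8a (1.28), which serves coenzyme Q synthesis, Slc27a1 (0.97; edgeR adjusted p = 0.0515 with the block), a fatty acid transporter, and Gabarapl1 (0.90), an autophagy protein.

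Genes of mitosis held the most calls of the 27 lists: 10 of 60 passed and all 10 fell (Kif15, Nusap1, Ttk, Ndc80, Mad2l1, Birc5, Kif4, Cdca8, Cdca5 and Cks1b), against 0.365% of all genes. The fitted change was below 0 in 59 of the 60, the median was -1.54, and in 58 both LT-HSC libraries lay below all 4 MPP2 libraries, against 11.6% of all genes. The summed level of the list was 3794 and 3975 CPM in LT-HSC and 9942, 11149, 9712 and 10623 CPM in MPP2 1 to 4, a ratio of means of 2.67. With the block by number 18 members passed, with the block by mouse 5, against MPP2 1 and 2 alone 3, and without the 3 KO libraries 22, all lower. MPP2 1 and 2 and MPP2 3 and 4 had much the same mitosis level (median log2 difference between the pairs 0.064).

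Promoters of these genes are known to carry CCAAT boxes, bound by NF-Y, and the cell cycle homology element TTTGAA, bound by the DREAM and MuvB complexes that hold such genes silent in resting cells. Both motifs were searched on both strands of RefSeq promoter windows of GRCm38.p6 (250 bases before to 50 after a gene's start, the first listed window per gene, 27025 genes). Of the 60 mitosis genes 50 had a window. TTTGAA was in 36 of them (72.0%), against 18.1% of all windows, CCAAT in 36 (72.0%), against 37.9%, and both in 29 (58.0%), against 7.12%. All 10 called mitosis genes had a window, with CCAAT in 4 (40.0%), near the 37.9% of all windows. TTTGAA was in 7 (70.0%) of these 10, and both motifs in 4 (40.0%). Those 4 are shown since they carry both motifs and fell together, as the 250 bases before the start and the first 30 after it, in the direction of the gene, with CCAAT and TTTGAA or their reverse complements ATTGG and TTCAAA in capitals:
Ttk (chr9:83834439-83834718, plus strand): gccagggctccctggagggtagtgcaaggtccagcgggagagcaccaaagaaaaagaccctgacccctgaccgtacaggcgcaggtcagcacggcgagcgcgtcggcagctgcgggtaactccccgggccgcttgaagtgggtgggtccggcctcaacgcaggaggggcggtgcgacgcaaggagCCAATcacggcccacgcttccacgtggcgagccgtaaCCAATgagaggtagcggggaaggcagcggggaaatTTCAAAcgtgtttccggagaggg
Kif4 (chrX:100625815-100626094, plus strand): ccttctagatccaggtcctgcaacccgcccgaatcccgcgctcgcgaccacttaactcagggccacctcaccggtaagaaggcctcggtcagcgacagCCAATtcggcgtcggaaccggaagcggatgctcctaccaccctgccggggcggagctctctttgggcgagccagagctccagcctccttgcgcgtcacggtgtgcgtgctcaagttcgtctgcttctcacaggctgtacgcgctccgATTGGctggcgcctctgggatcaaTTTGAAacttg
Cdca8 (chr4:124936888-124937167, minus strand): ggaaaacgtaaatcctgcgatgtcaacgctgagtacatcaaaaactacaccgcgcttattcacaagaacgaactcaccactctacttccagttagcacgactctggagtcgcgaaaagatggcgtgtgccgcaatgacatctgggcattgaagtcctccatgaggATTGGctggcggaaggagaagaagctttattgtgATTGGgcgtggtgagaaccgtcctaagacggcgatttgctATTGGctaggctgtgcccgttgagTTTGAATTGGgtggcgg
Cks1b (chr3:89418262-89418541, minus strand): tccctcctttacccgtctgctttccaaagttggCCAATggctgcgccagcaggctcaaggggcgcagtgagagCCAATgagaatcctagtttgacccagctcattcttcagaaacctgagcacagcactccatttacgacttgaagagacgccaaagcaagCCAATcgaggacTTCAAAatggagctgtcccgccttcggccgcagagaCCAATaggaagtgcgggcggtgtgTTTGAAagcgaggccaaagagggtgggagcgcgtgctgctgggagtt
In Ttk, Kif4 and Cdca8 the TTTGAA match lies just after the start, its first base at positions 8, 20 and 14, and in Cdca8 it shares a base with a CCAAT match. In Cks1b the matches begin at -77 and -17, before the start. CCAAT matches number 2 in Ttk and Kif4 and 4 in Cdca8 and Cks1b. A match is a run of letters, and binding was not measured.

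Ttk, the kinase MPS1 of the spindle checkpoint, was at 11.9 and 13.3 CPM in LT-HSC 1 and 2, and at 76.1, 61.1, 40.7 and 49.1 CPM in MPP2 1 to 4. It had the largest fall among the 10, -2.17 ± 0.39 (SE; edgeR adjusted p = 0.0175). Ndc80, which joins kinetochores to microtubules, was at 28.0 and 34.6 CPM in LT-HSC 1 and 2, and at 107, 104, 91.0 and 125 CPM in MPP2 1 to 4, and Mad2l1, a checkpoint protein that delays anaphase, at 103 and 115 CPM in LT-HSC 1 and 2, and at 344, 269.9, 269.8 and 363 CPM in MPP2 1 to 4. Each fell, with log2 fold changes of -1.77 ± 0.33 (SE; edgeR adjusted p = 0.0203) and -1.52 ± 0.28 (SE; edgeR adjusted p = 0.0209). The chromosomal passenger proteins moved with them: Birc5, survivin, was at 78.7 and 74.4 CPM in LT-HSC 1 and 2, and at 233, 276, 253 and 399 CPM in MPP2 1 to 4, a change of -1.92 ± 0.39 (SE; edgeR adjusted p = 0.0328). Cdca8, borealin, was at 61.5 and 72.6 CPM in LT-HSC 1 and 2, and at 181, 209, 249.9 and 256 CPM in MPP2 1 to 4, a change of -1.74 ± 0.36 (SE; edgeR adjusted p = 0.0328). The stem cell libraries of both genes lay well below the lowest progenitor library.

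Nusap1 (chromosome 2, 119618298 to 119651244, plus strand), a spindle microtubule bundler, was at 61.9 and 79.9 CPM in LT-HSC 1 and 2, and at 311, 283, 263 and 304 CPM in MPP2 1 to 4. It fell, with a change of -2.03 ± 0.36 (SE; edgeR adjusted p = 0.0162). Kif15, a kinesin that keeps spindle poles apart, was at 17.1 and 25.1 CPM in LT-HSC 1 and 2, and at 61.6, 101, 71.4 and 77.3 CPM in MPP2 1 to 4, and Kif4, the chromokinesin of the midzone, at 14.3 and 12.4 CPM in LT-HSC 1 and 2, and at 34.1, 52.8, 42.6 and 41.6 CPM in MPP2 1 to 4. Both kinesins fell, with changes of -1.88 ± 0.31 (SE; edgeR adjusted p = 0.00868) and -1.68 ± 0.34 (SE; edgeR adjusted p = 0.0328). Cdca5, sororin, which protects cohesion of sister chromatids, was at 34.9 ± 0.715 CPM in LT-HSC (SD, n = 2) and 90.8 ± 15.1 CPM in MPP2 (SD, n = 4), and Cks1b, a small partner of cyclin-dependent kinases, at 181 ± 5.01 CPM in LT-HSC (SD, n = 2) and 535 ± 83.7 CPM in MPP2 (SD, n = 4). These 2 calls were lost with the block (edgeR adjusted p = 0.0558 and 0.0725). Mki67, the proliferation antigen Ki-67, was at 88.1 and 109 CPM in LT-HSC 1 and 2, and at 258, 320.3, 178 and 227 CPM in MPP2 1 to 4, and it passed with the block (edgeR adjusted p = 0.124 without and 0.0105 with it).

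**Figure D3:**
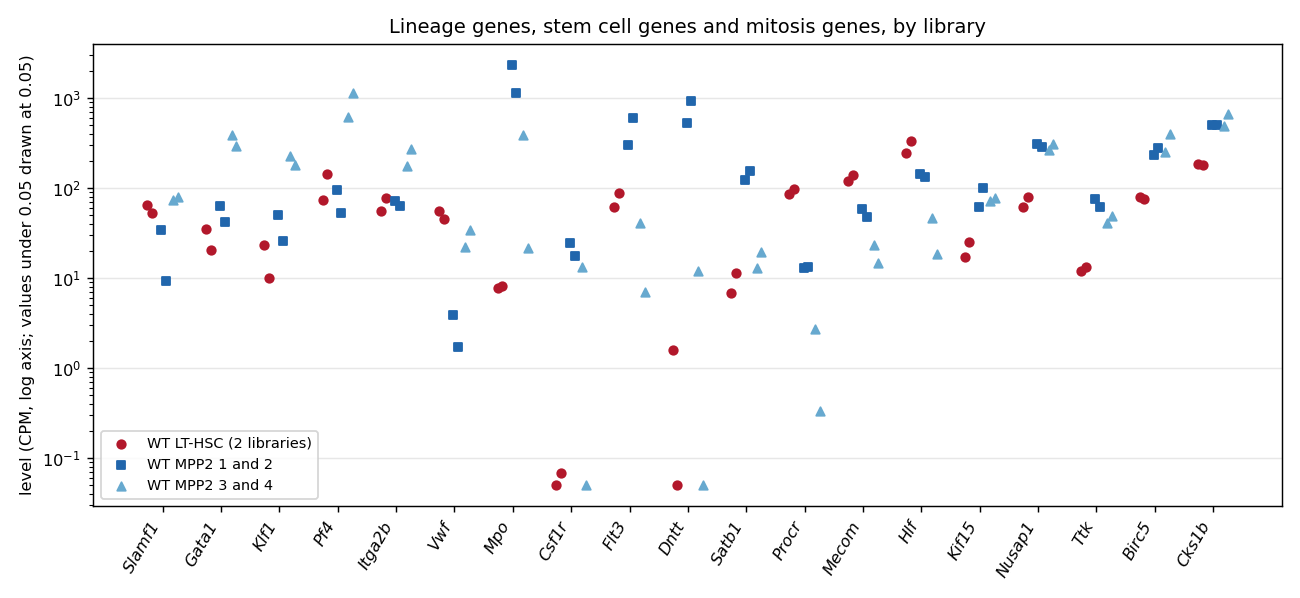
Level (CPM, log axis) of 19 lineage, stem cell and mitosis genes in each library; red circles are WT LT-HSC 1 and 2, dark blue squares WT MPP2 1 and 2, light blue triangles WT MPP2 3 and 4, and values under 0.05 are drawn at 0.05. The 2 pairs of MPP2 libraries separate in lineage genes such as Gata1, Pf4, Flt3 and Dntt and lie together in mitosis genes such as Nusap1 and Cks1b.

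Few DNA replication genes passed. Of 50 S phase genes 1 passed (Exo1), against 0.365% of all genes called lower. All 50 had a fitted change below 0, and the median was -0.94. In 40 the LT-HSC libraries lay below all MPP2 libraries, against 11.6% of all genes. Without the 3 KO libraries 15 members passed and with the block by number 3, all lower. With the block by mouse, against MPP2 1 and 2 alone and against MPP2 3 and 4 alone 0 passed. The summed level was 5029 and 4363 CPM in LT-HSC and 8211 to 9183 CPM in MPP2. Exo1, a nuclease of mismatch repair and resection, was at 16.4 and 26.2 CPM in LT-HSC 1 and 2, and at 62.4, 80.4, 65.0 and 46.1 CPM in MPP2 1 to 4, a change of -1.57 ± 0.34 (SE; edgeR adjusted p = 0.0379). Pola1, the catalytic subunit of DNA polymerase alpha, was at 72.8 ± 3.14 CPM in LT-HSC (SD, n = 2) and 147 ± 14.4 CPM in MPP2 (SD, n = 4), and it passed with the block (edgeR adjusted p = 0.0528 without and 0.00983 with it). The E2F-type letters GCGGGAA, read on both strands, were in 16 of 40 promoter windows of this list (40.0%), against 4.66% of all windows.

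Outside the lists, chosen after their values were seen, other called genes that fell also serve chromosome duplication and division. Pclaf, a PCNA-bound factor, named by the rule, was at 39.3 and 57.4 CPM in LT-HSC 1 and 2, and at 259, 291, 152 and 202 CPM in MPP2 1 to 4, a change of -2.22 ± 0.48 (SE; edgeR adjusted p = 0.0384). Pbk, a mitotic kinase, was at 92.7 and 85.2 CPM in LT-HSC 1 and 2, and at 339, 286, 256 and 329.8 CPM in MPP2 1 to 4, a change of -1.77 ± 0.37 (SE; edgeR adjusted p = 0.0357). Fbxo5, the inhibitor EMI1 of the anaphase-promoting complex, was at 44.2 ± 7.83 CPM in LT-HSC (SD, n = 2) and 119.9 ± 11.1 CPM in MPP2 (SD, n = 4), and Gmnn, geminin, which blocks relicensing, at 90.8 ± 5.30 CPM in LT-HSC (SD, n = 2) and 232 ± 70.5 CPM in MPP2 (SD, n = 4). In these 4 genes every LT-HSC library was below every MPP2 library. Of centromere proteins Cenph had a log2 fold change of -1.50 ± 0.24 (SE; edgeR adjusted p = 0.00868) and Cenpw of -1.48, a call lost with the block (edgeR adjusted p = 0.0821). Of chromatin proteins Hmgb2, a DNA-bending protein, was at 204 and 212 CPM in LT-HSC 1 and 2, and at 493, 577, 608 and 819 CPM in MPP2 1 to 4, a change of -1.58 ± 0.32 (SE; edgeR adjusted p = 0.0328). The histone chaperone Nasp had a log2 fold change of -1.09 and the histone variant H2afz of -1.39 (edgeR adjusted p = 0.0594 with the block, past the threshold without it).

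Replication-dependent histones had a median of -1.32 over 55 genes, and 1, Hist1h2bm, passed, at 3.28 ± 0.981 CPM in LT-HSC (SD, n = 2) and 16.1 ± 5.49 CPM in MPP2 (SD, n = 4), or 3 with the block by number and 0 with the block by mouse. The share of all genes called lower was 0.365%. In 33 of the 55 the LT-HSC libraries lay below all MPP2 libraries, against 11.6% of all genes. These genes are near-identical copies that reads may not part, and most histone transcripts lack the poly(A) tail.

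Some respiratory chain subunits fell. Of 65 nuclear-encoded subunits tested, 6 passed, all lower (Ndufa4, Cox7b, Cycs, Ndufb5, Cox6c and Ndufb3), against 0.365% of all genes, all 65 had a fitted change below 0, and the median was -0.65. In 56 the groups did not overlap, with LT-HSC below, against 11.6% of all genes. Without the 3 KO libraries 21 members passed, against MPP2 1 and 2 alone 1, and against MPP2 3 and 4 alone 23, all of them lower. With the block by mouse, and with the 6 compared libraries alone, 0 passed. The summed level was 17173 and 16570 CPM in LT-HSC, 23874 and 21924 CPM in MPP2 1 and 2, and 27000 and 30971 CPM in MPP2 3 and 4. Ndufa4, a subunit now placed in complex IV, was at 510.4 and 480.0 CPM in LT-HSC 1 and 2, and at 1375, 1073, 934 and 1221 CPM in MPP2 1 to 4, a change of -1.22 ± 0.21 (SE; edgeR adjusted p = 0.0102). Cycs, cytochrome c, was at 59.2 and 46.8 CPM in LT-HSC 1 and 2, and at 123, 97.7, 119.6 and 148 CPM in MPP2 1 to 4, a change of -1.20 ± 0.25 (SE; edgeR adjusted p = 0.0362). Cox7b, of complex IV, was at 258 ± 0.594 CPM in LT-HSC (SD, n = 2) and 449.6 ± 69.3 CPM in MPP2 (SD, n = 4), with stem cell libraries nearly equal. Cox6c, also of complex IV, was at 355 ± 20.3 CPM in LT-HSC (SD, n = 2) and 632 ± 121 CPM in MPP2 (SD, n = 4), and its call was lost with the block (edgeR adjusted p = 0.0526). Ndufb5 and Ndufb3, of complex I, had log2 fold changes of -0.71 and -0.65. Transcripts of the mitochondrial genome had no call among 9, and their median was -0.27, which was 0.30 against MPP2 3 and 4 alone. Ribosome biogenesis genes had no call among 50, a median of -0.31 and 44 fitted changes below 0. Of 82 ribosomal proteins, a family with many near-identical pseudogene copies, 1 passed (Rps27l, 339 ± 30.6 CPM in LT-HSC (SD, n = 2) and 659 ± 98.4 CPM in MPP2 (SD, n = 4)), and the median was -0.20.

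**Figure D4:**
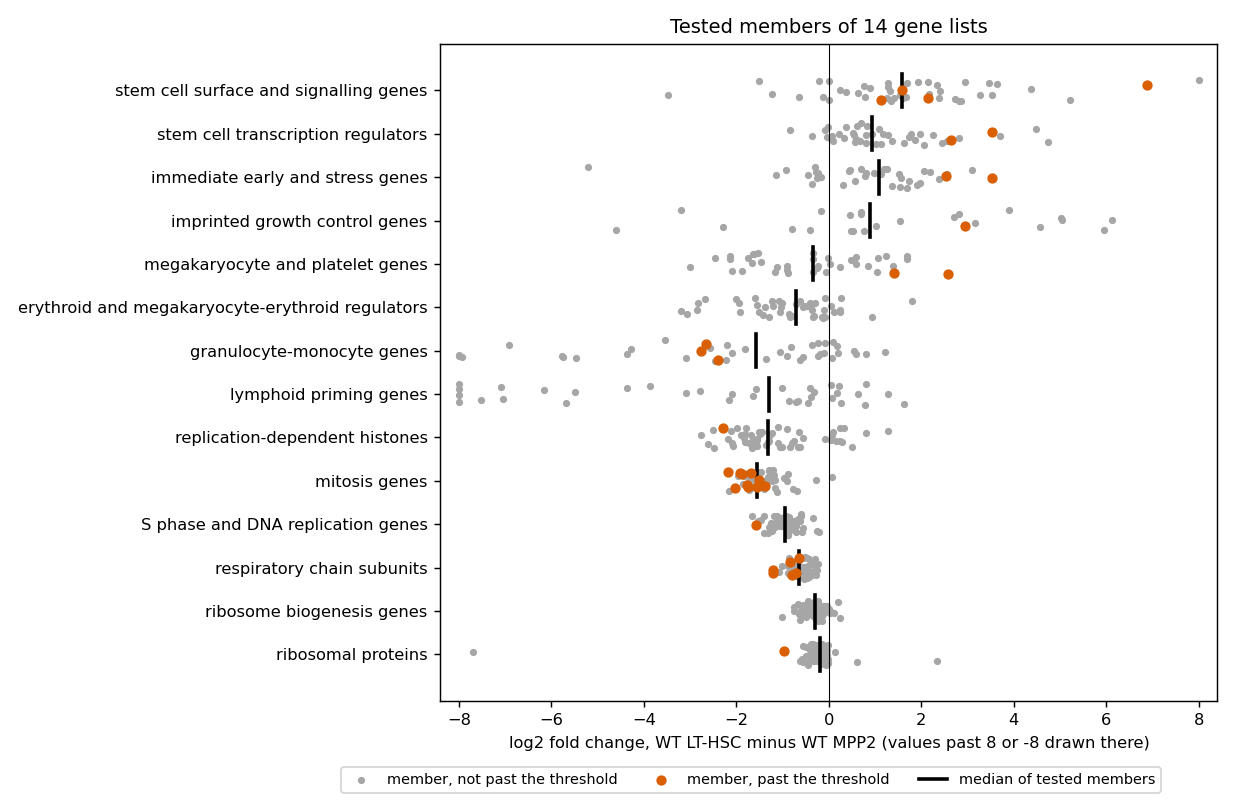
Log2 fold change (WT LT-HSC minus WT MPP2, horizontal axis) of each tested member of 14 gene lists; grey dots did not pass the edgeR threshold, orange dots did, black bars are list medians, and values past 8 or -8 are drawn there. Medians of the stem cell lists lie to the right of 0 (1.59 and 0.94), and those of mitosis, S phase and respiratory chain genes to the left (-1.54, -0.94 and -0.65).

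Cst7, Nkg7, Plac8 and Lgals1 were among the genes outside the cell cycle lists that fell. Cst7, cystatin F, an inhibitor of cathepsins in granules, was at 1.93 and 1.09 CPM in LT-HSC 1 and 2, and at 89.6, 94.8, 70.2 and 144 CPM in MPP2 1 to 4. Both LT-HSC levels were far below all MPP2 levels, and the change was -6.04 ± 0.99 (SE; edgeR adjusted p = 0.00868). Nkg7, a granule membrane protein, was at 123 and 111 CPM in LT-HSC 1 and 2, and at 702, 557, 558 and 1143 CPM in MPP2 1 to 4, a change of -2.66 ± 0.45 (SE; edgeR adjusted p = 0.0102). Plac8, a marker of myeloid commitment, was at 217 and 125 CPM in LT-HSC 1 and 2, and at 1658, 1269.8, 635 and 1109 CPM in MPP2 1 to 4, a change of -2.77 ± 0.63 (SE; edgeR adjusted p = 0.047). All 4 MPP2 libraries held Nkg7 and Plac8 above both stem cell libraries. Lgals1, galectin-1, was at 34.8 and 39.7 CPM in LT-HSC 1 and 2, and at 165, 151, 144 and 319 CPM in MPP2 1 to 4, a change of -2.39 ± 0.39 (SE; edgeR adjusted p = 0.00868). Nkg7, Plac8 and Lgals1 were the 3 genes past the threshold among 40 granulocyte-monocyte genes, a list with a median of -1.58. The share of all genes called lower was 0.365%.

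Ifi209, an interferon-inducible DNA sensor of the IFI200 family, had 0 counts in both LT-HSC libraries and 27.7, 16.8, 10.9 and 2.85 CPM in MPP2 1 to 4. With 1501 counts in MPP2 it was at least 279.5-fold lower in LT-HSC, taking 3 counts over the LT-HSC group as the floor, and members of this family share sequence that reads may not part. Ptger2, the EP2 receptor of prostaglandin E2, chosen after its values were seen, had 0 counts in LT-HSC and 556 in MPP2, at least 103.5-fold lower. Tent5a, a poly(A) polymerase, was at 7.38 and 2.07 CPM in LT-HSC 1 and 2, and at 62.7, 29.3, 60.7 and 59.8 CPM in MPP2 1 to 4, a change of -3.49 ± 0.57 (SE; edgeR adjusted p = 0.00868). Rab44, a large GTPase of granule release, was at 2.60 and 3.36 CPM in LT-HSC 1 and 2, and at 45.7, 23.8, 31.0 and 37.0 CPM in MPP2 1 to 4, and its call was lost with the block (edgeR adjusted p = 0.0522). MPP2 2 held both of these at the lowest MPP2 level.

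Btnl9, a butyrophilin-like surface protein, was at 0.597 and 3.81 CPM in LT-HSC 1 and 2, and at 27.1, 16.4, 15.6 and 44.8 CPM in MPP2 1 to 4. Bex6, of the brain-expressed X-linked family by name, was at 6.33 and 5.37 CPM in LT-HSC 1 and 2, and at 75.9, 114, 37.8 and 15.1 CPM in MPP2 1 to 4. Both passed (-3.56 ± 0.74 (SE; edgeR adjusted p = 0.0355) and -3.37 ± 0.76 (SE; edgeR adjusted p = 0.0486)), with MPP2 levels that spread widely. Palm, paralemmin, a membrane-bound protein of cell shape, was at 2.58 ± 0.721 CPM in LT-HSC (SD, n = 2) and 13.9 ± 2.03 CPM in MPP2 (SD, n = 4), and Rtkn2 at 2.27 ± 0.225 CPM in LT-HSC (SD, n = 2) and 14.7 ± 2.97 CPM in MPP2 (SD, n = 4). Tmsb10, a binder of actin monomers, chosen after its values were seen, was at 69.9 and 76.1 CPM in LT-HSC 1 and 2, and at 159, 184, 118 and 214 CPM in MPP2 1 to 4 (-1.21 ± 0.25 (SE; edgeR adjusted p = 0.0328)).

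Many lineage genes were at different levels in MPP2 1 and 2 than in MPP2 3 and 4. The test between the pairs called 0 of 36 lymphoid, 0 of 40 granulocyte-monocyte, 0 of 47 erythroid and 0 of 39 megakaryocyte genes, against 0.0427% of all genes. The title numbers of the 2 pairs lie far apart (53 and 60, against 163 and 208), and no WT LT-HSC library bears number 3 or 4. Against MPP2 3 and 4, the population therefore cannot be told apart from the pair. Mpo, the peroxidase of early granulocytes and monocytes, was at 7.70 and 8.19 CPM in LT-HSC 1 and 2, and at 2319, 1134, 390.1 and 21.6 CPM in MPP2 1 to 4. It did not pass (edgeR adjusted p = 0.185), though all MPP2 libraries were above LT-HSC. Flt3, the receptor of lymphoid-primed progenitors, was at 61.8 and 87.8 CPM in LT-HSC 1 and 2, and at 301, 591, 40.9 and 6.96 CPM in MPP2 1 to 4. LT-HSC lay between the pairs, and the fitted change of -1.65 turned to 1.64 against MPP2 3 and 4 alone. Dntt, the polymerase of antigen receptor joining, was at 1.58 and 0 CPM in LT-HSC 1 and 2, and at 530.5, 917, 11.9 and 0 CPM in MPP2 1 to 4 (edgeR adjusted p = 0.269). Satb1, a chromatin organiser of lymphoid cells, was at 6.82 and 11.5 CPM in LT-HSC 1 and 2, and at 124, 154, 12.8 and 19.5 CPM in MPP2 1 to 4, and passed with the block (edgeR adjusted p = 0.134 without and 0.0491 with it). Flt3, Dntt and Satb1 were highest in MPP2 1 and 2, the libraries in which B cell and plasma cell markers took 0.982% and 0.321% of counts, against at most 0.0331% in the other 4, and the part of such cells was not tested.

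Gata1, the master factor of red cells and megakaryocytes, was at 34.9 and 20.3 CPM in LT-HSC 1 and 2, and at 63.3, 41.3, 383 and 293 CPM in MPP2 1 to 4, and Klf1, its erythroid partner, at 23.3 and 9.92 CPM in LT-HSC 1 and 2, and at 49.7, 25.6, 227 and 179 CPM in MPP2 1 to 4. MPP2 3 and 4 held both far above the other libraries. Pf4, platelet factor 4, was at 73.1 and 142 CPM in LT-HSC 1 and 2, and at 94.6, 52.1, 612 and 1127 CPM in MPP2 1 to 4, and Itga2b, the platelet integrin CD41, at 55.5 and 78.1 CPM in LT-HSC 1 and 2, and at 71.7, 62.7, 174 and 272 CPM in MPP2 1 to 4. For Pf4 the fitted change of -2.13 turned to 0.55 against MPP2 1 and 2 alone. Vwf, von Willebrand factor, a mark of platelet-primed stem cells, was at 55.3 and 44.9 CPM in LT-HSC 1 and 2, and at 3.91, 1.71, 22.2 and 34.4 CPM in MPP2 1 to 4. LT-HSC held Vwf above all MPP2 libraries, without a call (edgeR adjusted p = 0.496). None of Gata1, Klf1, Pf4 and Itga2b passed (edgeR adjusted p from 0.505 to 0.604).

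Summed lymphoid priming genes were at 3059 and 3166 CPM in LT-HSC 1 and 2, 16581 and 15657 CPM in MPP2 1 and 2, and 1935 and 1917 CPM in MPP2 3 and 4. Summed granulocyte-monocyte genes were at 2189 and 2393 CPM, 11670 and 7312 CPM, and 3245 and 3837 CPM in the same order. Summed erythroid genes and regulators were at 7432 and 6491 CPM, 7039.6 and 5788 CPM, and 13971 and 13083 CPM. The list medians against MPP2 were -1.29 for 36 lymphoid and -0.70 for 47 erythroid genes, with 0 past the threshold in either, against 0.63% of all genes. Against MPP2 3 and 4 alone the lymphoid median was 0.31 and the granulocyte-monocyte median 0.34. Between the 2 pairs themselves edgeR called 9 genes (0.0427% of 21100), 8 of them higher in MPP2 1 and 2, and 0 of the 133. Against MPP2 1 and 2 alone 35 genes passed, 25 of the 133 among them, and against MPP2 3 and 4 alone 362 passed, 102 of the 133 among them. The direction of all 133 was the same against either pair, which was fixed in advance, since in these genes the groups do not overlap.

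Phf6 was at 5.75 to 13.2 CPM in KO LT-HSC and 11.3 to 12.3 CPM in KO MPP2, below every WT library of both populations. The same contrast in the Phf6 KO libraries, which share no library with the WT contrast, gave the same direction for all 133 genes, against 68.0% of all genes tested. Of the 133, 79 passed in KO too, where 381 genes (1.81%) passed in all. Both contrasts take each gene's spread from the same fit of all 21 libraries, so passing in WT and passing in KO are not independent. KO MPP2 1 gave 19.8% of its counts to a single gene, and without it and the 2 KO MPP3 libraries of that kind 933 genes passed in KO, 93 of the 133 among them, with all 133 in the same direction. The higher genes had a median of 2.07 in WT and 1.96 in KO, and the lower genes -1.46 in WT and -0.82 in KO. These genes were chosen by their WT values, which favours larger changes in WT, so the medians do not compare the genotypes. The difference between genotypes passed for 0 genes by edgeR, with 759 (3.60%) at an unadjusted p under 0.05, 24 of them among the 133, and for 24 genes by DESeq2. The log2 fold change in KO was 2.40 for Mllt3 and -5.86 for Cst7, against 2.65 and -6.04 in WT. In the mitosis list 24 of 60 passed in KO, all lower, with a median of -1.37. The respiratory chain list had 0 of 65 past the threshold in KO and a median of -0.41. Plk2 ranged over 8.85 to 13.5 CPM in KO LT-HSC and 0 to 3.53 CPM in KO MPP2, a change of 2.85. Cep72, a centriolar satellite protein that was lower in WT (2.44 ± 1.36 CPM in LT-HSC (SD, n = 2) and 16.7 ± 2.81 CPM in MPP2 (SD, n = 4); -2.77 ± 0.48 (SE; edgeR adjusted p = 0.0117)), ranged over 7.78 to 16.7 CPM in KO LT-HSC and 12.7 to 29.8 CPM in KO MPP2, a change of -0.78. For both the difference between genotypes did not pass (smallest edgeR adjusted p over all genes 0.99999).

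**Figure D5:**
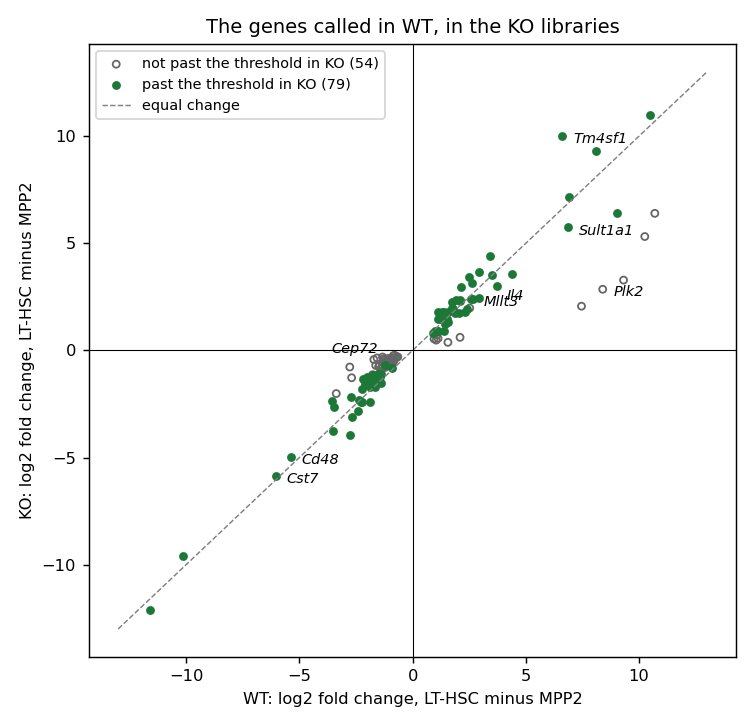
Log2 fold change of LT-HSC minus MPP2 in KO (vertical axis) against WT (horizontal axis) for the 133 genes past the threshold in WT; filled green points, 79 genes, also passed in KO and open points, 54 genes, did not, and the dashed line marks equal change. All points lie in the upper right or lower left, and Plk2 is among the points far from the line.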

How the data were processed

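Per the labels' protocols, RNA-seq libraries were prepared by Nextera XT. The submitters' processing notes name STAR and the build mm10, with the STAR version, the counting program, its annotation and filters not given in the sources used here. One deposited table held raw counts per gene, whole numbers without normalization, for all 21 libraries. Of 54446 gene identifiers 54409 matched GENCODE M21 (mm10), from which symbols and coordinates come, and 101 symbols were shared by several identifiers.

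Counts were filtered (filterByExpr over the 6 groups, minimum count 10), scaled by TMM and tested in edgeR 4.0.16 (R 4.3.3) with a robust quasi-likelihood fit of all 21 libraries and no covariates. The contrast was WT LT-HSC minus WT MPP2, with Benjamini-Hochberg adjustment over the 21100 genes tested and a threshold of 0.05. SE is the log2 fold change divided by the root of the F statistic. The script was tested on simulated data. No 2 libraries held identical counts. The labels do not tie each library to a mouse, so p-values measure the spread between these libraries, which may be partly technical.

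The design text names 4 pairs of mice, and libraries of a number have neighbouring title numbers (except KO LT-HSC 3). Same-numbered libraries of the same genotype were therefore taken to share mice. Across the genotypes a number was taken as a pair of mice. Over 9193 autosomal genes of at least 10 CPM, deviations from group means correlated between same-numbered MPP2 and MPP3 libraries at 0.340, 0.160, 0.310 and 0.129. Libraries of different numbers gave -0.323 to 0.176 (MPP2 3 with MPP3 4). Same-numbered LT-HSC and MPP2 gave 0.00359 and 0.146, and LT-HSC and MPP3 -0.0951 and -0.00033. LT-HSC 1 gave 0.0631 with MPP2 3 and 0.0629 with MPP2 4. With 2 LT-HSC libraries, values of LT-HSC 2 are those of LT-HSC 1 with the sign turned.

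Genes named are the 15 higher and 15 lower of largest change among genes past the threshold with at least 10 CPM and no overlap (predicted genes passed over), up to 4 members of smallest p per list, and a fixed set of stem cell and lineage genes; others are said to be chosen after their values were seen. Members, lists and motifs were chosen with earlier results of these data known. Alternatives were DESeq2 1.42.0, limma 3.58.1 voom, RLE factors, other filters, fewer libraries, blocks, a number term, each replicate left out, and, chosen after seeing the data, a fit without 3 KO libraries in which 1 gene took over 7% of counts.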

Additional observations from a re-analysis of the deposited data

Results flagged for a closer look

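Among the 4 WT MPP2 libraries, 5 of the 105 genes checked had a library whose gap to the nearest other library was a larger part of the group's range than Dixon's 95% critical value for 4 samples allows, and chance alone gives about 1 such gene in 20. Tm4sf1 was at 0.490 CPM in MPP2 2, against at most 0.0403 CPM in the other 3. Plk2 was at 0.322 CPM in MPP2 1 and at 0 in the others. Tent5a was at 29.3 CPM in MPP2 2, below 59.8 to 62.7 CPM in the others. Lgals1 was at 319 CPM in MPP2 4, above 144 to 165 CPM in the others. Cks1b was at 660.2 CPM in MPP2 4, above 485 to 499 CPM in the others. In each of these genes the library that stood apart was still on the same side of both LT-HSC libraries as the other MPP2 libraries. That was fixed in advance, since all 5 are among the 133 called genes, in which the groups do not overlap.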

How the results depend on the processing

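Limits: the contrast had 2 LT-HSC libraries, both numbered 1 or 2, and the number of genes called moved with the libraries, the filter and the tool. All 133 genes kept their direction in each of the 19 alternatives, where the lack of overlap between the groups left little room for a turn. With each of the 6 libraries left out in turn 0 to 124 genes passed, 0 to 58 higher and 0 to 66 lower. The 0, without LT-HSC 2, was by edgeR, with 1626 genes at an unadjusted p under 0.05. A left-out LT-HSC library leaves a lone sample that is assumed to vary like the other groups.

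DESeq2 called 838 genes (315 higher, 523 lower), limma voom 664 (480 and 184), edgeR without a count filter 54 (28 and 26, over 42571 genes tested), the 6 compared libraries alone 46 (17 and 29), the 10 WT libraries alone 315 (115 and 200), MPP2 1 and 2 alone as the partner 35 (9 and 26), MPP2 3 and 4 alone 362 (210 and 152), and the fit without the 3 KO libraries, chosen after seeing the data, 527 (229 and 298). RLE factors gave 134 genes and shifted the median of all genes to 0.022. For the difference between genotypes DESeq2 called 24 genes. The cause of these differences was not tested, beyond fewer samples or more genes tested where the setting itself has them.

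With the replicate number as a block over 21 libraries 192 genes passed (75 higher, 117 lower), and with the replicate block by mouse in the 10 WT libraries 34 (10 and 24). Of the 75 called genes the report names, 64 kept the call with the first block and 16 with the second, and 7 others gained it with the first: Mecom, Ier2, Mki67, Pola1, Satb1, Itgal and Ezh2. None of these 7 passed with the second block (edgeR adjusted p from 0.0514 for Pola1 to 0.152 for Satb1). Mllt3, Sult1a1, Tinagl1, Mmrn1, Cish and Il4 were among the calls kept with the first block and lost with the second. The block by number also gave the difference between genotypes no call.

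Values that turned, with the cause not tested, were these. Slamf1, at 0.24, was at -0.40 against MPP2 3 and 4 alone and -0.088 to 0.59 with a replicate left out, the lowest without MPP2 2. Phf6, at 0.13, was at -0.27 with the block by mouse, -0.27 against MPP2 1 and 2 alone and -0.15 to 0.40 with a replicate left out (-0.15 without LT-HSC 1, -0.12 without MPP2 3). Pf4, at -2.13, was at 0.55 against MPP2 1 and 2 alone, and Flt3, at -1.65, at 1.64 against MPP2 3 and 4 alone. The megakaryocyte and platelet median, -0.34, was 0.024 with voom, 0.27 with the block by number, 0.51 with the block by mouse, 0.23 with a covariate that parts numbers 1 and 2 from the rest, 0.73 against MPP2 1 and 2 alone and -0.57 to 0.10 with a replicate left out, the highest without MPP2 4. The granulocyte-monocyte median, -1.58, was 0.34, the lymphoid priming median, -1.29, was 0.31, and the mitochondrially encoded median, -0.27, was 0.30, each against MPP2 3 and 4 alone, and the last was -0.45 to 0.054 with a replicate left out, the highest without MPP2 1. The niche adhesion and homing median, -0.12, was 0.049 with voom, 0.015 with the block by number, 0.21 against MPP2 3 and 4 alone and -0.19 to 0.15 with a replicate left out (0.15 without LT-HSC 1, 0.016 without MPP2 1, 0.12 without MPP2 2). Over the 105 genes named and all alternatives, 1370 values stayed on their side of the threshold, 547 called values lost the call in the same direction and 70 gained it.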

Other observations

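Further gene groups held few or no calls. Of all genes tested 0.63% passed, and 0 calls in a list of this size is near that share. Notch and T-lineage genes had 0 of 21 past the threshold and a median log2 fold change of 1.21. Among them Gata3, a T-lineage factor that stem cells also use, was at 52.0 and 55.7 CPM in LT-HSC 1 and 2, and at 24.2, 14.1, 12.6 and 8.18 CPM in MPP2 1 to 4. Both LT-HSC libraries were above all MPP2 libraries, without a call (edgeR adjusted p = 0.068). Interferon response genes had 0 of 45, with 34 fitted changes above 0 and a median of 0.59, and TNF and NF-kB genes 0 of 30, with a median of 0.55. Glycolysis genes had 0 of 27 and a median of 0.27. Ldhb, the lactate dehydrogenase subunit of oxidative tissues, was at 155 and 179 CPM in LT-HSC 1 and 2, and at 70.6, 67.6, 28.3 and 32.6 CPM in MPP2 1 to 4 (edgeR adjusted p = 0.0735). DNA methylation and polycomb genes had 0 of 37 and a median of 0.018. Ezh2, the polycomb methyltransferase, was at 98.7 and 88.9 CPM in LT-HSC 1 and 2, and at 164, 194, 191 and 139.7 CPM in MPP2 1 to 4, lower in both LT-HSC libraries (edgeR adjusted p = 0.0642; 0.0414 with the replicate block). BCL2 family genes had 0 of 21 and a median of -0.20, and antigen presentation genes 0 of 23 and a median of 0.29.

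Niche adhesion and homing genes had 0 of 31 past the threshold, near the 0.63% of all genes, and a median of -0.12. Itgal, the integrin chain of LFA-1 on white cells, was at 4.39 and 0.850 CPM in LT-HSC 1 and 2, and at 51.5, 34.4, 16.1 and 16.9 CPM in MPP2 1 to 4. It was lower in both LT-HSC libraries and passed with the replicate block (edgeR adjusted p = 0.0703 without and 0.026 with it). Plek, pleckstrin, a signalling protein of platelets and white cells, was at 75.2 and 78.5 CPM in LT-HSC 1 and 2, and at 192, 183, 261 and 320.0 CPM in MPP2 1 to 4 (edgeR adjusted p = 0.089). Mycn, a MYC family factor that stem cells express, was at 277 and 123 CPM in LT-HSC 1 and 2, and at 64.0, 25.6, 81.8 and 93.1 CPM in MPP2 1 to 4 (edgeR adjusted p = 0.162). Its LT-HSC libraries differed from each other and both lay above all MPP2 libraries.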
